A study of Mus musculus with 2 samples.

Results

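Rab GTPases are small GTP-binding proteins that mark the membranes of a cell, and the genes described here are those named Rab or Tbc1d in the gene tables of macrophages from leukaemic mice. Members were the rows whose deposited symbol begins with Rab or Tbc1d followed by a digit. There were 93 such genes among the 16428 with a read in either library, and 86 had 10 or more reads in a library. The 93 comprised 57 Rab GTPase genes, 9 genes named after a Rab that encode effectors or regulators, and 27 Tbc1d genes. The rule reads the symbol and not a level. The 7 genes under 10 reads were Rab3b, Rab3c, Rab15, Rab25, Rab26, Rab33a and Rab42, with at most 8 reads in either library, and they are not compared below.

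A Rab is loaded with GTP by an exchange factor, recruits effectors that tether, move or fuse vesicles, and is switched off when a GTPase-activating protein speeds GTP hydrolysis. Most such GTPase-activating proteins carry a TBC domain, for which the Tbc1d genes are named. Each Rab keeps to its own compartments: Rab5 on early endosomes, Rab7 on late endosomes and lysosomes, Rab11 on recycling endosomes, Rab1 between the endoplasmic reticulum and the Golgi, and Rab27 and Rab3 on secretory granules. In macrophages the endosomal Rabs steer the ripening of phagosomes, and in granulocytes, mast cells and platelets the secretory Rabs bring granules to the plasma membrane.

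The series set out to compare macrophages of mice with MLL-AF9 acute myeloid leukaemia. The libraries were 1 from bone marrow macrophages and 1 from spleen macrophages, both sorted 15 days after C57BL/6J mice aged 6 to 8 weeks received 500000 GFP+ leukaemia cells each without irradiation. Both libraries therefore came from leukaemic mice of the same strain, in a model whose survival is given as 25 to 30 days. Neither the markers of the sort nor the number of mice behind each library is given, and healthy mice were not analysed here. Each tissue had 1 library and no replicate: every difference is between these libraries, no p-value is given, and intervals cover counting error only.

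After TMM scaling (trimmed mean of M-values, a correction for library composition) the depth was 9405947 uniquely placed reads for bone marrow and 8457857 for spleen. Levels between libraries are given as CPM, a read count over that depth, and levels between genes as RPKM, the authors' deposited values per kilobase of gene length. A gene was called higher in a library when its CPM plus 1 differed by at least 2-fold. All 19 measured macrophage markers had reads in both libraries, at a summed 750.5 CPM for bone marrow and 1739.8 CPM for spleen, among them Csf1r at 197 and 364 CPM. Markers of other cells were also present. Among all marker lists Tpsb2 had 1 read in bone marrow and none in spleen, and Tpsab1 and Gp6 had none in either library. The 18 neutrophil and precursor genes summed to 49143 CPM for bone marrow and 2330 CPM for spleen, and 17 of them were higher in bone marrow. The 15 B cell genes summed to 744 CPM for bone marrow and 6473 CPM for spleen, and the 16 T cell genes to 285 and 2096 CPM in the same order, all of them higher in spleen. In bulk RNA, fewer cells of a type and less RNA per cell cannot be told apart.

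Promoter sequences are shown for a few members past 2-fold, to set the regulatory sequence beside the levels that follow. They are the 250 bases before the annotated start, from RefSeq on GRCm38.p6, which held promoters for 70 of the 86 members used here. The source held none for Rab44, Rab38, Rab27b or Rab30, and that of Tbc1d2 is not shown. Rab27a, Rab32 and Rab3d stand for the secretory Rabs that were higher in bone marrow, Tbc1d4 and Tbc1d9 for genes higher in spleen. Capitals mark matches on either strand to any of 4 motifs: GAGGAAGT (an ETS site of the PU.1 kind), TTGCNNAA (a C/EBP site), CACGTG (an E-box) and the NF-kB site (3 G, 2 free bases, 3 T and 2 C in a row). Rab27a has 2 annotated starts, at chr9:73044560-73044809 and chr9:73063898-73064147, both on the plus strand. Rab32 is at chr10:10558208-10558457 on the minus strand and Rab3d at chr9:21918184-21918433 on the minus strand. Tbc1d4 is at chr14:101609192-101609441 on the minus strand and Tbc1d9 at chr8:83165102-83165351 on the plus strand.
Rab27a, upstream start: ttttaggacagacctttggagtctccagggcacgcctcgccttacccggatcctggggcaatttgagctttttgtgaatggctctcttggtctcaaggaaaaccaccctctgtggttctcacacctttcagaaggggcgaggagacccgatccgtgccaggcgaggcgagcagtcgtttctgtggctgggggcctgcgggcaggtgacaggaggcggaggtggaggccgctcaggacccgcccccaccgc
Rab27a, downstream start: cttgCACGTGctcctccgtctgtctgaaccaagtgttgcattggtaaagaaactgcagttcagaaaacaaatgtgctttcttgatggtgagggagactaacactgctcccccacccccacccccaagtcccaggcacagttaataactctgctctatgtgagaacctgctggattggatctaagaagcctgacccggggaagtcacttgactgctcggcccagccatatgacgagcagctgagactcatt
Rab32: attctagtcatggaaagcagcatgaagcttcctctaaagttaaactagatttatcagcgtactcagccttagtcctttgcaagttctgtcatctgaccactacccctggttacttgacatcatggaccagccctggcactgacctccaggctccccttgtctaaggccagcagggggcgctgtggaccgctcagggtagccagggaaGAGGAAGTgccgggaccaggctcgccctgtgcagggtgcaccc
Rab3d: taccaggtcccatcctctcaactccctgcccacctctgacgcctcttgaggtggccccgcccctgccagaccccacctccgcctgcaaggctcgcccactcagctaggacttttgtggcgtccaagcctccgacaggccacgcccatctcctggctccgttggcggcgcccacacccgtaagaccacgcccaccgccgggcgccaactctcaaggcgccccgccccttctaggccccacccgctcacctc
Tbc1d4: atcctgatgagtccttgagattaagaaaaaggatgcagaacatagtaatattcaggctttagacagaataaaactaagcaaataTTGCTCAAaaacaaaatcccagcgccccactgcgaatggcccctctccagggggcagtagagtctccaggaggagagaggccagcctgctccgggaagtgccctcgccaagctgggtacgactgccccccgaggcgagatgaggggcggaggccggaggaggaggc
Tbc1d9: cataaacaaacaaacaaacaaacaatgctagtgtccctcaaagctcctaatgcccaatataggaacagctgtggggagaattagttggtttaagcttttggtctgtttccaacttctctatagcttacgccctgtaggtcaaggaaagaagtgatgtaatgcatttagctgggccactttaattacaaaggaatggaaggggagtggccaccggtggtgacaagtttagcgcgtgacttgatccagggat

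No motif ran through either set of promoters. The PU.1-type site lay 43 bases before the Rab32 start and was found in 1 of 12 members higher in bone marrow, 1 of 8 higher in spleen (Rab2b) and 0 of 50 within 2-fold, against 2.44% of all 32851 promoters. The C/EBP site was in 1 of 12 (Rab40b), 1 of 8 (Tbc1d4) and 5 of 50, against 9.56% of all promoters. The E-box was in 2 of 12 (Rab27a and Tbc1d24), 0 of 8 and 9 of 50, against 6.02%. The NF-kB site was in 1 of 12 (Rab28), 0 of 8 and 2 of 50, against 1.41%. A member counted as matched when any of its annotated starts had the motif, while the percentages are of single promoters. The 12, 8 and 50 members had 14, 8 and 70 promoters. Their median content of G and C was 59.4%, 66.2% and 61.8%, against 52.4% for all promoters. They held a median of 13, 19 and 18 CG pairs, against 6, and the E-box itself holds a CG pair. The rates are therefore not like for like. These matches describe letters in the windows and are not evidence of binding.

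As a whole the family divided between the tissues much as all genes did. Of the 86 members, 15 (17.4%) passed 2-fold towards bone marrow, as did 14.1% of the 12970 genes past the same read floor. Higher in spleen were 12 members (14.0%), against 14.6% of all genes. The other 59 lay within 2-fold, and the median log2 ratio of bone marrow over spleen was -0.01 for the members and 0.03 for all genes. At 4-fold the counts were 5 in bone marrow (5.81%, against 4.42% of all genes) and 5 in spleen (5.81%, against 4.09%). These shares are near the background in each direction.

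**Figure D1:**
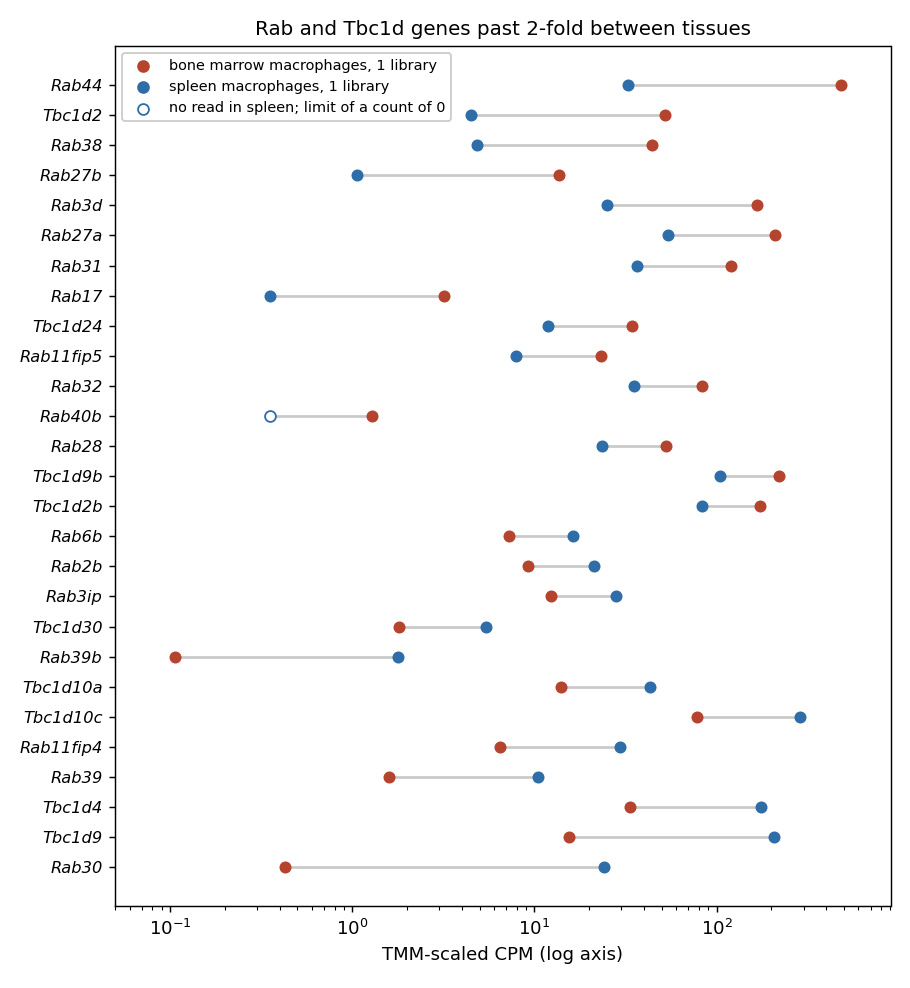
TMM-scaled CPM on a log axis for the 27 members past 2-fold, with bone marrow in red and spleen in blue, 1 library each, ordered by ratio. Rab44 is the highest at 484 CPM for bone marrow and 32.5 CPM for spleen, and Rab30 has the widest gap towards spleen, at 0.425 CPM for bone marrow and 24.1 CPM for spleen. The open circle marks the limit that a count of 0 allows for Rab40b in spleen.

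Counts by role group are set here beside the shares of all genes, 14.1% towards bone marrow and 14.6% towards spleen. Regulated secretion and lysosome-related organelles had 9 Rabs past the floor, of which 6 passed 2-fold towards bone marrow and 0 towards spleen (median log2 ratio 1.93). For early endosome and phagosome Rabs it was 2 of 8 and 0 (median 0.09). No member passed 2-fold among the 4 late endosome and lysosome Rabs (median 0.25), the 6 recycling Rabs (median 0.02) or the 4 Rabs of Golgi-to-surface traffic (median -0.11). Rabs of the endoplasmic reticulum and Golgi passed it towards spleen in 3 of 12 cases and towards bone marrow in 0, although their median was 0.20. Tbc1d genes passed it towards bone marrow in 4 of 27 cases (14.8%) and towards spleen in 5 (18.5%), near the shares of all genes (median -0.13). The 9 Rab-named effectors and regulators had 1 and 2 (median -0.43). Groups of 4 or 6 genes are too small for 0 calls to be set apart from the shares of all genes. The groups were drawn from known functions, with earlier results of these data known, and are described, not tested. The median of the secretory group was 0.94 with no read floor, which adds Rab3b, Rab3c and Rab26.

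**Figure D2:**
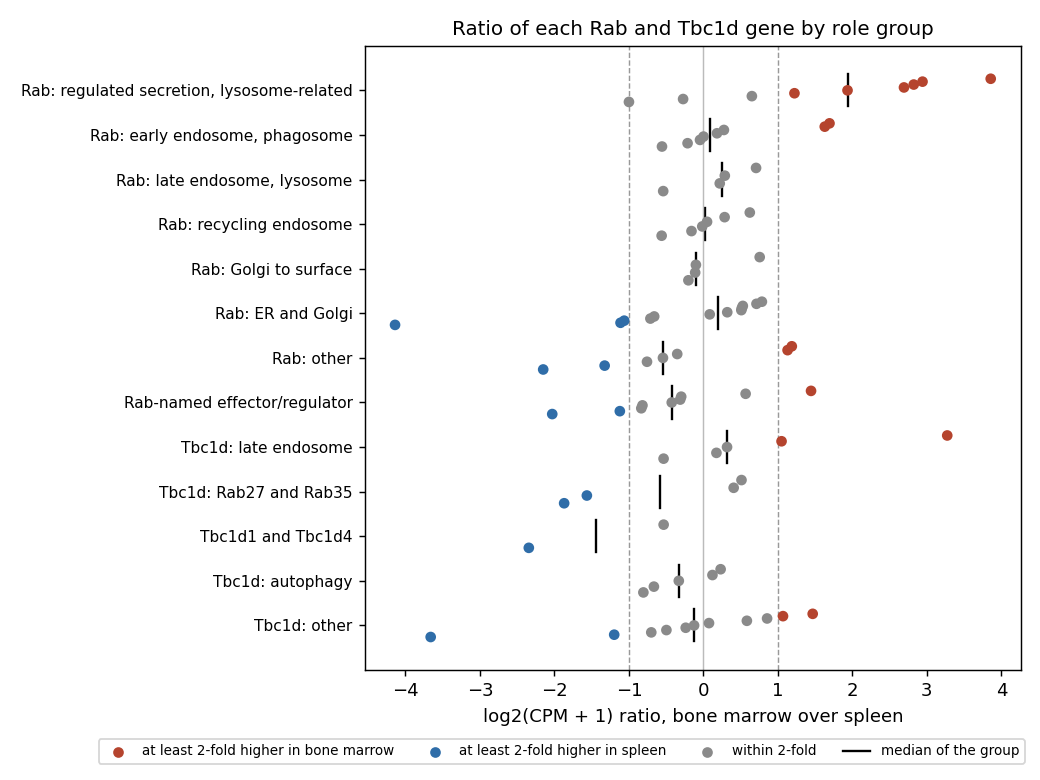
Each point is the log2(CPM + 1) ratio of bone marrow over spleen for 1 of the 86 members, in rows by role, with the 2-fold limits dashed and a bar at each group's median. The secretory Rabs lie furthest to the right, with a median of 1.93, and the endosomal and Golgi-to-surface rows lie around 0.

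Secretory Rabs made up 4 of the 5 members past 4-fold towards bone marrow once 1 CPM was added. The folds given for single genes here and below are plain CPM ratios, with nothing added. Rab44, an unusually large Rab with an EF-hand region that acts in the degranulation of mast cells, had 4557 bone marrow reads and 275 spleen reads, or 484 and 32.5 CPM. It was 14.9-fold higher in bone marrow (95% counting interval 13.2 to 16.9), and at 115 RPKM it was the member ranked 3 by level there, against rank 56 in spleen at 8.11 RPKM. Rab27a, needed for the release of lytic and azurophilic granules, had 1969 bone marrow reads and 457 spleen reads, 3.87-fold higher in bone marrow (3.50 to 4.30). Its relative Rab27b, which acts in platelet and mast cell granules, had 128 bone marrow reads and 9 spleen reads, 12.8-fold higher in bone marrow (6.53 to 28.6). Rab27a made up 97.3% of the summed Rab27 RPKM in bone marrow and 99.2% in spleen, so Rab27a was the main form in both tissues while Rab27b was low in both.

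Rab3d, which coats the granules of exocrine and mast cells, had 1568 bone marrow reads and 211 spleen reads. That is 167 CPM for bone marrow and 24.9 CPM for spleen, 6.68-fold higher in bone marrow (5.78 to 7.75). Rab3a, the synaptic vesicle Rab, went the other way, with 27 bone marrow reads and 57 spleen reads, a CPM ratio of 2.35 towards spleen (1.46 to 3.86) that stayed just inside the limit once 1 CPM was added. Rab3d therefore made up 95.6% of the summed RPKM of the 4 Rab3 genes in bone marrow and 58.0% in spleen, and Rab3a 4.27% in bone marrow and 40.7% in spleen.

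Rab38 and Rab32, close relatives that deliver cargo to melanosomes and platelet dense granules, were both higher in bone marrow. Rab38 had 413 bone marrow reads and 41 spleen reads, 9.06-fold higher in bone marrow (6.56 to 12.8). Rab32 had 783 bone marrow reads and 297 spleen reads, 2.37-fold higher in bone marrow (2.07 to 2.72). Rab38 took 40.7% of the pair's RPKM in bone marrow and 15.2% in spleen. The other members of the group lay within 2-fold: Rab37, a mast cell granule Rab, counted 625 reads from bone marrow and 355 from spleen, and Rab29 (deposited as Rab7l1), a Rab of the trans-Golgi network, 188 and 206.

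Markers of granulocytes and megakaryocytes were mostly higher in bone marrow too. Eosinophil, basophil and mast cell genes leaned to bone marrow in 11 of 13 cases and to spleen in 2 (Ccr3 and Il5ra), and the list summed to 2668 CPM for bone marrow and 118 CPM for spleen. Prss34, a basophil protease, was at 1008 CPM for bone marrow and 14.7 CPM for spleen. Megakaryocyte and platelet genes did so in 9 of 13 cases against 1 for spleen, with sums of 439.8 and 99.9 CPM. Among the neutrophil and precursor genes, with a median log2 ratio of 4.21, Mpo was at 8543 CPM for bone marrow and 103 CPM for spleen. The granule genes of the natural killer cell list went the other way. Gzma was at 18.8 CPM for bone marrow and 85.5 CPM for spleen, and Prf1 at 10.8 and 35.8 CPM. In that list 5 of 10 genes passed 2-fold towards spleen and 1 towards bone marrow. No marker list was made for the leukaemia cells that the mice carried. The part of any of these cells in the secretory Rab levels was not tested.

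**Figure D3:**
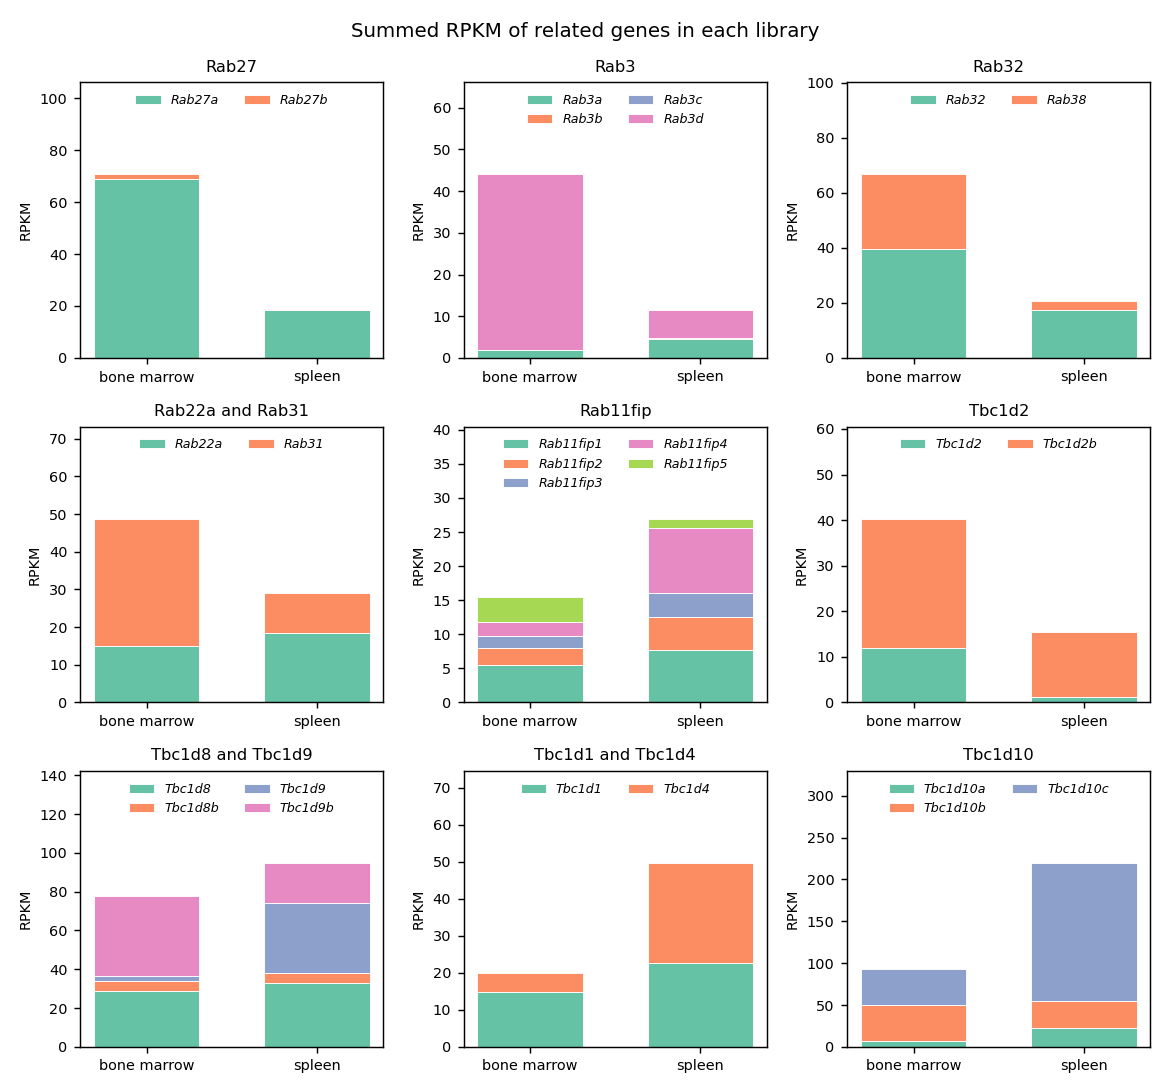
Deposited RPKM of related genes, stacked for the bone marrow library (left bar) and the spleen library (right bar) of each panel. The Rab3 bar is nearly all Rab3d in bone marrow (95.6%), and the share of Tbc1d9 among the Tbc1d8 and Tbc1d9 genes is 3.30% in bone marrow and 38.1% in spleen.

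Most endosomal Rabs were abundant and close to equal. Rab7, the Rab of late endosomes and lysosomes, had the highest level of any member in bone marrow, at 169 RPKM, and stood at 144 RPKM in spleen. Rab5c was the highest of the early endosome Rab5 genes in both libraries, at 134 RPKM in bone marrow and 116 RPKM in spleen, 67.8% of the summed Rab5 RPKM in bone marrow and 64.9% in spleen. Rab21, which acts in integrin uptake, had 1032 bone marrow reads and 927 spleen reads, a ratio of 1.00 (0.915 to 1.10). Rab14, a Rab of recycling endosomes, had 1505 and 1368 reads in the same order, and its interval for spleen over bone marrow, 0.939 to 1.09, also included equal levels. The recycling genes Rab11a and Rab11b were both within 2-fold, with Rab11a at 50.1% of the summed RPKM of Rab11a, Rab11b and Rab25 in bone marrow and 45.9% in spleen.

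Rab31 and Rab17 were the exceptions among the early endosome Rabs. Rab31, which sorts mannose 6-phosphate receptors between the trans-Golgi network and endosomes, had 1128 bone marrow reads and 308 spleen reads, 3.29-fold higher in bone marrow (2.90 to 3.75). Its relative Rab22a had 277 and 290 reads, so Rab31 made up 69.1% of the pair's RPKM in bone marrow and 36.8% in spleen. Rab17, a Rab of epithelial transcytosis, had 30 bone marrow reads and 3 spleen reads, a ratio of 8.99 (2.80 to 46.0). Rab20, which acts on maturing phagosomes, was low in both libraries, at 28 and 41 reads.

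Golgi Rabs split between a common set and 3 genes that were higher in spleen. Rab1b was the most abundant of the group at 101 RPKM in bone marrow and 74.5 RPKM in spleen, and Rab1a (deposited as Rab1) was at 55.4 and 40.1 RPKM. Rab6a, of retrograde traffic to the Golgi and endoplasmic reticulum, had 1256 bone marrow reads and 652 spleen reads, 1.73-fold higher in bone marrow (1.57 to 1.91) and inside the limit. Rab30, a Golgi Rab, had 4 bone marrow reads and 204 spleen reads, 56.7-fold higher in spleen (21.8 to 210). Its reads covered 9.77% of the gene in bone marrow and 83.0% in spleen in the deposited coverage column.

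The other Golgi genes higher in spleen were minor members of their pairs. Rab2b had 87 bone marrow reads and 179 spleen reads, and its share of the Rab2 RPKM was 5.02% in bone marrow and 16.6% in spleen. Rab6b, a form known best from neurons, had 68 and 137 reads, with shares of the Rab6 RPKM of 3.58% in bone marrow and 12.6% in spleen. In the GENCODE annotation 64.0% of the exonic bases of Rab2b lie under genes on the opposite strand, Tox4 among them. Tox4 had 985 bone marrow reads and 990 spleen reads. No source used here says whether the counting used strand, so reads of those genes may not be separable.

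Among Rabs of other or mixed function, 2 were higher in each tissue. Rab28, a Rab of cilia, had 493 bone marrow reads and 198 spleen reads, 2.24-fold higher in bone marrow (1.89 to 2.65). Rab40b, a Rab with a SOCS box that joins ubiquitin ligases, had 12 bone marrow reads and 0 spleen reads, which against the 3 reads that a count of 0 allows in a library is at least 3.60-fold higher in bone marrow. That figure leaves out the counting error of the 12 reads, with which the lower limit of the exact interval is 2.50. Rab39, which acts on phagosomes and in autophagy, had 15 bone marrow reads and 89 spleen reads, 6.60-fold higher in spleen (3.79 to 12.3). Rab39b had 1 bone marrow read and 15 spleen reads, a ratio of 16.7 towards spleen (2.57 to 702).

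Close relatives among the Tbc1d8 and Tbc1d9 genes differed in opposite directions. Tbc1d9 had 145 bone marrow reads and 1748 spleen reads, or 15.4 and 207 CPM, 13.4-fold higher in spleen (11.3 to 16.0). Tbc1d9b, its close relative and a regulator of Rab11a, had 2081 bone marrow reads and 888 spleen reads, 2.11-fold higher in bone marrow (1.95 to 2.28). Of the RPKM summed over Tbc1d8, Tbc1d8b, Tbc1d9 and Tbc1d9b, Tbc1d9b took 53.1% in bone marrow and 21.7% in spleen, and Tbc1d9 3.30% in bone marrow and 38.1% in spleen. Tbc1d8 was nearly level, with 1240 bone marrow reads and 1217 spleen reads.

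Tbc1d4, also called AS160, holds glucose transporter vesicles inside the cell until insulin signalling releases them. It had 316 bone marrow reads and 1477 spleen reads, 5.20-fold higher in spleen (4.60 to 5.89). Its relative Tbc1d1 had 782 and 1022 reads in the same order, 1.45-fold higher in spleen (1.32 to 1.60) and inside the limit. Tbc1d4 was thus the smaller part of the pair in bone marrow, at 24.8% of its RPKM, and the larger in spleen, at 54.2%.

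Tbc1d10c, or carabin, restrains calcineurin and Ras signalling in lymphocytes, and in spleen it had the highest level of any member. It stood at 42.8 RPKM in bone marrow and 165 RPKM in spleen, with 733 and 2431 reads, 3.69-fold higher in spleen (3.39 to 4.01). Tbc1d10a, a regulator of Rab35 and Rab27a, had 131 bone marrow reads and 365 spleen reads, 3.10-fold higher in spleen (2.53 to 3.81). Tbc1d10b had 1489 and 937 reads, 1.43-fold higher in bone marrow (1.32 to 1.55), inside the limit. Tbc1d10c shares 35.5% of its exonic bases with another GENCODE gene on the same strand, so its count may hold reads of that gene.

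Among regulators of late endosomes, Tbc1d2 stood apart. Tbc1d2, also called Armus, which switches off Rab7, had 490 bone marrow reads and 38 spleen reads, 11.6-fold higher in bone marrow (8.33 to 16.6). Tbc1d2b had 1632 and 705 reads, 2.08-fold higher in bone marrow (1.90 to 2.28), and Tbc1d2 made up 29.3% of the pair's RPKM in bone marrow and 6.93% in spleen. The Rab7 regulators Tbc1d5 and Tbc1d15 were within 2-fold, at 79.5 and 94.5 CPM in bone marrow and at 70.3 and 75.7 CPM in spleen. Tbc1d24, a gene of synaptic vesicle traffic, had 324 bone marrow reads and 100 spleen reads, 2.91-fold higher in bone marrow (2.32 to 3.68). Tbc1d30, which regulates Rab8 at cilia, had 17 and 46 reads, 3.01-fold higher in spleen (1.69 to 5.60).

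Effectors and regulators named after a Rab also parted by gene. Rab11fip5, a Rab11 effector, had 219 bone marrow reads and 67 spleen reads, 2.94-fold higher in bone marrow (2.23 to 3.92). Rab11fip4, another Rab11 effector, had 61 bone marrow reads and 250 spleen reads, 4.56-fold higher in spleen (3.43 to 6.13). Rab11fip5 took 23.9% of the RPKM summed over the 5 Rab11fip genes in bone marrow and 4.89% in spleen, and Rab11fip4 13.0% in bone marrow and 35.7% in spleen. Rab3ip, an exchange factor for Rab8 also called Rabin8, had 116 bone marrow reads and 237 spleen reads, 2.27-fold higher in spleen (1.81 to 2.86). The subunits of the Rab3 GTPase-activating complex were within 2-fold, Rab3gap1 at 69.4 CPM for bone marrow and 85.6 CPM for spleen and Rab3gap2 at 123 and 82.9 CPM.

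The spleen library, in which Rab30, Tbc1d9, Tbc1d4, Tbc1d10c and Rab39 were higher, also held more B cell, T cell and dendritic cell transcripts. All 15 B cell genes (median log2 ratio -2.90) and all 16 T cell genes (median -3.07) were higher there. Plasma cell genes passed 2-fold towards spleen in 6 of 7 cases, and natural killer cell genes in 5 of 10, with 1 towards bone marrow. Conventional dendritic cell genes favoured spleen in 11 of 14 cases and bone marrow in 0, with sums of 293 CPM for bone marrow and 1499 CPM for spleen. Macrophage markers moved in that direction too, 12 of 19 passing 2-fold towards spleen and 0 towards bone marrow (median -1.16). The part of these cell types in the levels of the Tbc1d genes and Rabs was not tested.

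**Figure D4:**
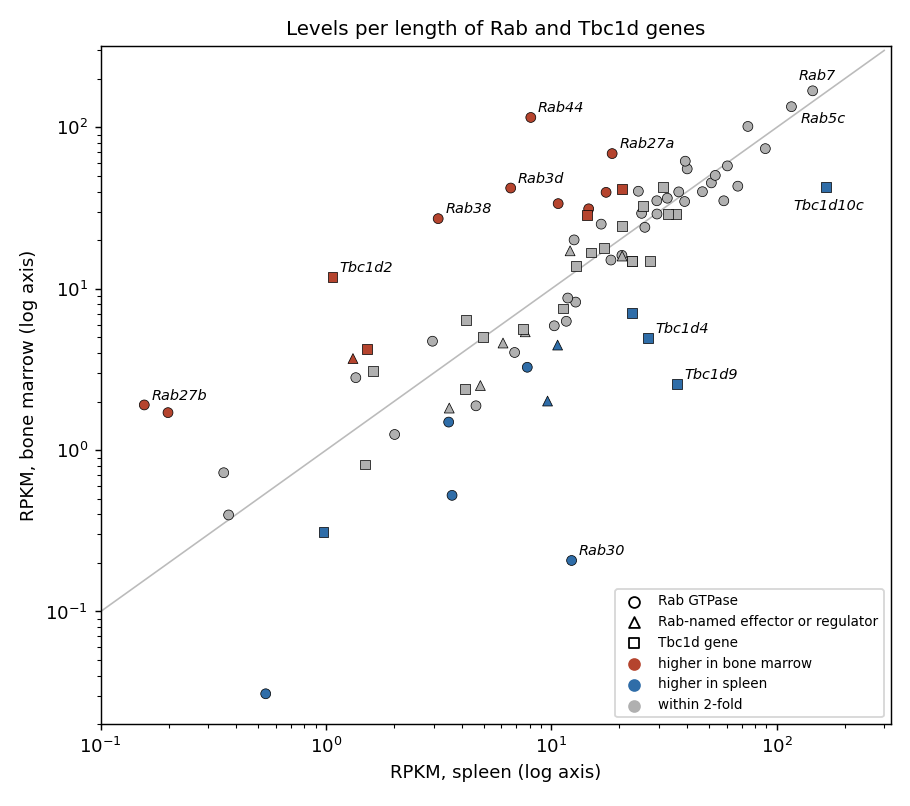
Deposited RPKM in bone marrow against spleen, both on log axes, for the members past the read floor other than Rab40b, which had no read in spleen, the line marking equal RPKM. Rab7 and Rab5c lie at the top near the line, Rab44 lies far above it (115 RPKM in bone marrow and 8.11 in spleen), and Tbc1d10c below it (42.8 in bone marrow and 165 in spleen).

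The most abundant members were largely common to both tissues. Of the 10 highest by RPKM in each library, 6 were shared: Rab7, Rab5c, Rab1b, Rab8a, Rab21 and Rab14. Rab8a, which carries cargo from the Golgi to the surface, was at 73.9 RPKM in bone marrow and 89.1 RPKM in spleen. The remaining leaders in bone marrow were Rab44, Rab27a, Rab2a and Rab1a, and in spleen Tbc1d10c, Rab4b, Rab43 and Rab10. Rab43 and Rab4b share 75.4% and 65.0% of their exonic bases with other GENCODE genes on the same strand, so their levels may hold reads of those genes. Across the members past the floor the median was 15.0 RPKM in bone marrow and 13.6 RPKM in spleen, against 10.7 and 11.3 RPKM for all genes.

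The call for some low genes depended on the scale. The members nearest the limit were Tbc1d2b (1.05) and Rab6b (-1.06) outside it on the log2 scale, and Tbc1d19 (0.85) and Rab3a inside it. Within the limit, 3 members had CPM ratios of 2 or more (Rab3a, Rab13 and Rab34). With a pseudocount of 5 CPM the calls of Rab17, Rab40b, Rab39b, Rab2b, Rab6b, Rab3ip and Tbc1d30 were lost. With the deposited RPKM those of Rab40b, Rab39b, Rab6b, Tbc1d30, Tbc1d2b and Tbc1d9b were lost, and with library totals alone that of Tbc1d2b.

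Other genes of the Rab cycle were counted from lists set by known function, with earlier results of these data known. Past the floor were 100, of which 9 favoured bone marrow and 17 spleen by 2-fold (median log2 ratio -0.03), beside 14.1% and 14.6% of all genes. Exchange factors passed 2-fold towards spleen in 8 of 31 cases and towards bone marrow in 0 (median -0.29), the 8 being Als2cl, Dennd3, Dennd6b, Dennd5b, Dennd1c, Dennd4b, Rin2 and Dennd2d. Als2cl, an exchange factor for Rab5, had 191 bone marrow reads and 1211 spleen reads. Dennd1c, of a family that loads Rab35, was at 50.6 CPM for bone marrow and 180 CPM for spleen.

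Effectors passed 2-fold towards bone marrow in 7 of 43 cases (16.3%) and towards spleen in 6 (14.0%), shares near those of all genes (median 0.01). Osbpl1a, a Rab7 effector, had 353 bone marrow reads and 29 spleen reads, and Micall2, an effector of Rab13, had 311 and 32. Sytl4, or granuphilin, a Rab27 effector on secretory granules, had 53 bone marrow reads and 3 spleen reads, a ratio of 15.9 (5.15 to 79.5). Other Rab27 effectors were mixed. Sytl1 had 194 bone marrow reads and 81 spleen reads and was called higher in bone marrow. Rph3al, with 7 and 23 reads in the same order, was called higher in spleen. Sytl2, at 63 and 116 reads, and Sytl3, at 81 and 145, lay within 2-fold. Unc13d, the Rab27 effector that primes lytic granules, was nearly level at 44.5 RPKM in bone marrow and 44.3 RPKM in spleen. Gdi2, a chaperone that recycles Rabs from membranes, was at 178 RPKM in bone marrow and 190.4 RPKM in spleen. None of the 9 TBC-domain genes with other names passed 2-fold. Lrrk2, a kinase that phosphorylates several Rabs, was at 77.5 CPM for bone marrow and 226 CPM for spleen.

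**Figure D5:**
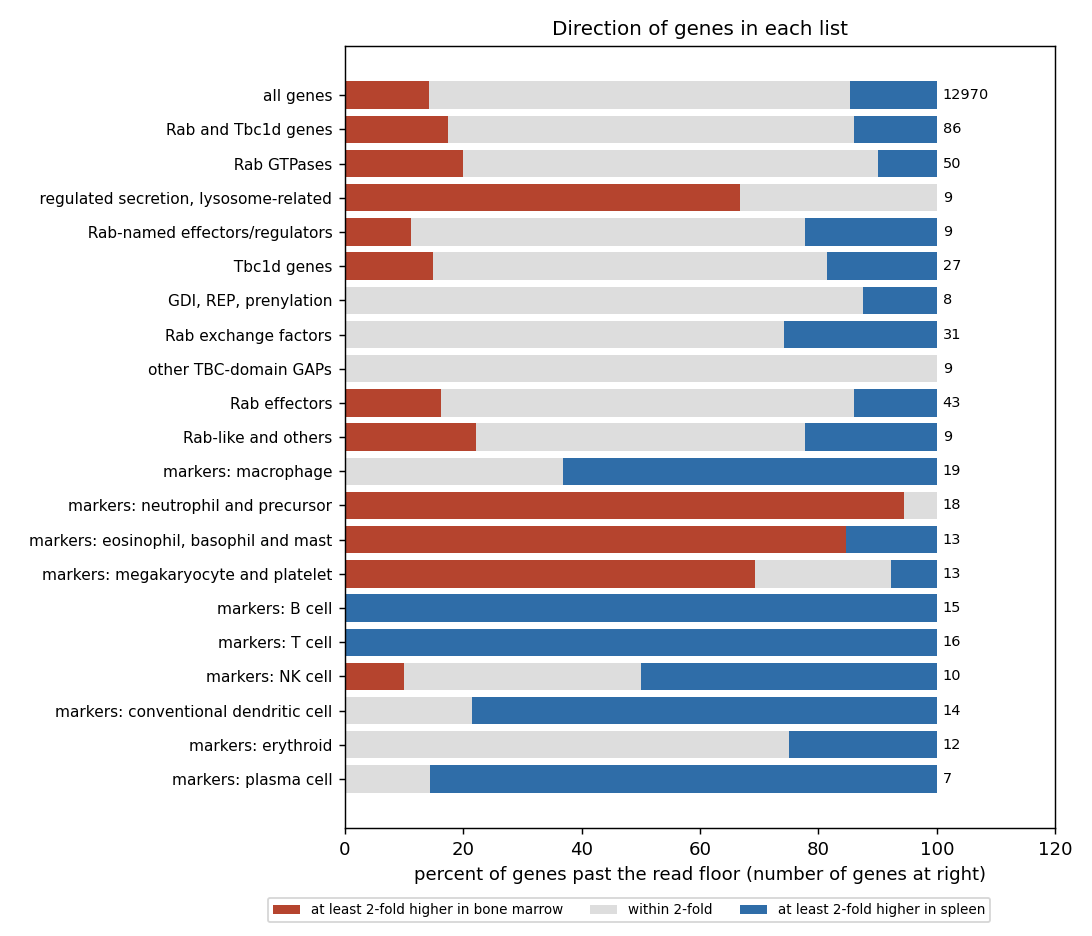
Percent of the genes of each list past 2-fold towards bone marrow (red), within 2-fold (grey) or past 2-fold towards spleen (blue), with the number of genes at the right. The Rab and Tbc1d row (17.4% and 14.0%) is close to the row of all genes (14.1% and 14.6%), while the B cell and T cell rows lie wholly towards spleen.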

How the data were processed

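RNA-seq of sorted macrophages gave 1 library per tissue. The authors deposited, per the file headers, a count of uniquely placed reads for each gene, together with gene length, coverage in percent of that length, and RPKM. Counts were whole, at least 1, and summed to the header totals. The sources used here name no aligner, counter, build or strand setting. Genes were joined on the Entrez identifier, and a gene missing from a table was given 0 reads. CPM came from counts over TMM-scaled depth, with factors of 0.977 (bone marrow) and 1.02 (spleen) from edgeR 4.0.16 under R 4.3.3. Calls and log2 ratios set bone marrow over spleen after adding 1 CPM, which understates changes of low genes, while folds and their intervals are CPM ratios with nothing added. A call needed 10 reads in a library and a 2-fold difference. Intervals of folds are exact (Clopper-Pearson, conditional on the summed count, 95%) and hold only the error of counting, since each tissue had 1 library. Any PCR copies counted as separate reads would make these intervals too narrow. A count of 0 allows 3 reads, or 0.319 CPM for bone marrow and 0.355 for spleen.

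The members and lists were chosen with earlier results of these data known. All members past 2-fold were described, with the 10 highest by RPKM in each library, relatives of members past 2-fold, and those nearest the limit. In the other Rab-cycle lists the rule named up to 4 genes with the largest ratios each way and the 2 with the highest RPKM, and in the marker lists up to 3. Dennd1c, Dennd4b, Rin2, Dennd2d, Csf1r, Ccr3, Il5ra, Unc13d, Sytl1, Sytl2, Sytl3, Rph3al and Tox4 fell outside these rules and were named after their values were seen. The procedure was checked on simulated counts. Results were recomputed with size factors of DESeq2 1.42.0, with unscaled totals, with pseudocounts of 0.1 and 5 CPM, without the floor, with 10 CPM as the floor, with a 4-fold limit, and on the deposited RPKM. One result of the other Rab-cycle lists is not reported here, though their counts include it.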

Additional observations from a re-analysis of the deposited data

Results flagged for a closer look

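Some genes whose present RefSeq symbol begins with Rab or Tbc1d and a digit were listed under other names, so the rule on deposited symbols left them out, and reads were found for them. Tbc1d31 (deposited as Wdr67) had 379 bone marrow reads and 153 spleen reads, 2.23-fold higher in bone marrow (1.84 to 2.71). Rab7b, a Rab of late endosomes and the trans-Golgi network, had 138 bone marrow reads and 155 spleen reads. Tbc1d32 had 53 reads in each library. Rab5if, which encodes a Rab5-interacting factor and no Rab, had 701 bone marrow reads and 210 spleen reads, or 74.5 CPM for bone marrow and 24.8 CPM for spleen. The opposite-strand RNAs Rab10os and Rab26os had 98 and 25 bone marrow reads and 112 and 20 spleen reads. In the GENCODE annotation Rab10os lies across 4.07% of the exonic bases of Rab10, and reads there cannot be told apart without a stated strand setting.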

How the results depend on the processing

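No paired analysis was possible because each tissue had 1 library, and for the same reason no replicate could be left out. Across the 7 alternatives that kept the 2-fold rule, 11 of the 15 members higher in bone marrow and 7 of the 12 higher in spleen kept their call, and no member changed direction. Among these, the alternatives that changed only the floor could not alter the call of a single gene, since calls were taken for the same 86 members. Rab17, Rab40b, Rab39b and Tbc1d30 lay under 10 CPM in both libraries. With library totals alone, and with a pseudocount of 0.1 CPM, 1 secretory Rab (Rab3a) was higher in spleen in place of 0. With a pseudocount of 5 CPM, 7 members were higher in spleen, 5 other Rab-cycle genes were higher in bone marrow and 1210 of all genes were higher in spleen. Under the 4-fold rule 5 members were higher in each tissue, as were 3 other Rab-cycle genes in bone marrow and 4 in spleen, and 573 and 530 of all genes in the same order. The larger pseudocount and the 4-fold rule lower such counts by construction. The 6 secretory Rabs higher in bone marrow kept that call in every alternative with the 2-fold rule that could change it, and 4 of them passed 4-fold. Depth limits Rab40b, Rab39b, Rab17 and Rab30, each with under 5 reads in a library.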
